A study of Sus scrofa with 15 samples.

Results

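PHIP (ENSSSCG00000004473), ASH1L (ENSSSCG00000006508) and JMJD1C (ENSSSCG00000010226) are 3 genes for chromatin regulators, out of the 16660 pig genes with counts in this RNA-seq experiment. They were chosen from the differentially expressed genes of Tg1 against NC, so their difference between those groups is given below as a description, without a test. The cells were LLC-PK1, an established epithelial line from the pig renal proximal tubule. They received by transient transfection either the empty plasmid (NC) or a plasmid carrying human PKD2, the gene for polycystin-2, a cation channel mutated in autosomal dominant polycystic kidney disease. The inserts were wild-type PKD2 (WT), PKD2 with c.A1532T/p.D511V (Tg1), with c.T1967G/p.L656W (Tg2) or with c.C2224T/p.R742X (Tg3). All 5 plasmids had the floxP-neo-pH11 backbone with CAG, a strong promoter active in most cell types, and the inserts came in addition to the endogenous pig genes, which every group retained. The PKD2 products carried a FLAG tag at the C-terminus, except that of Tg3, which stops before it. RNA was taken 48 h after transfection with 3 µg of plasmid, from 3 wells per plasmid, giving 15 libraries. The wells were replicate transfections of 1 cell line, so the p-values measure the spread between wells, and transfected and untransfected cells of a well were sequenced together.

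All 3 proteins act on histones. PHIP (also called DCAF14) has WD40 repeats and bromodomains, binds methylated and acetylated histone H3, and serves as a substrate receptor of the CUL4-DDB1 ubiquitin ligase. It was first described as a partner of the insulin receptor substrate IRS1. ASH1L is a trithorax-group methyltransferase that dimethylates lysine 36 of histone H3, works with MORF4L1 (MRG15), and opposes Polycomb silencing at HOX genes. JMJD1C belongs to the KDM3 family of JmjC proteins, whose members remove methyl groups from lysine 9 of histone H3, and it was found as a partner of the thyroid hormone receptor.

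The libraries held 20216200 to 26132196 counts each. Levels are CPM, counts scaled to a common library total after TMM normalization. Genes with a mean CPM of at least 2 over the 15 libraries were tested, which left 11553 genes and kept PHIP, ASH1L and JMJD1C. A gene was called where the quasi-likelihood test of edgeR gave an adjusted p-value of at most 0.05 and the absolute log2 fold change was at least 0.26. No replicate pair looked like a repeated library, as chi-square statistics for pairs of replicates were 2.73 to 40.3 times their degrees of freedom. Of 23 renal tubule markers, 20 were tested. Of these, the cadherin gene CDH6 was called lower in Tg1 than in NC (-0.35 on the log2 scale), beside 1.01% of all genes. In Tg2 against NC, 7 markers were called lower and 1 higher, beside 3.7% and 4.73% of all genes. Without NC replicate 3 or Tg2 replicate 2, that comparison had 0 calls over all genes. KRT8 was at 2138 to 2497 CPM and LRP2 at 214 to 306 CPM, while GATM stayed at 0 to 0.33 CPM. Defining markers of leukocytes and endothelium were near 0, with at most 0.046 CPM for PTPRC and 0.13 CPM for CDH5 (PECAM1 reached 1.86 CPM), and so were PDGFRA and PDGFRB of fibroblasts (at most 0.083 and 0.093 CPM). Exceptions were the fibroblast collagen gene COL1A2 at 850 to 1023 CPM, beside COL1A1 at 0.455 to 1.05 CPM, and CD3E at 18.2 to 22.9 CPM. The leukocyte genes CD68 and CSF1R reached 3.27 and 2.51 CPM, and CD68 was called higher in Tg2 than in WT (0.81 on the log2 scale, edgeR adjusted p = 0.03). The summed levels of the fibroblast and leukocyte markers overlapped between Tg1 and NC. The 6 fibroblast markers found summed to 879 to 999 CPM in Tg1 and 928 to 968 CPM in NC. The 6 leukocyte markers summed to 24.8 to 27.8 CPM against 25.6 to 26.3 CPM. The sums of the 21 renal tubule markers found did not overlap, with 5711 to 5824 CPM in Tg1 and 5547 to 5632 CPM in NC. KRT8 was the largest part of these sums. Gene by gene, 11 of the 20 tested markers were lower in Tg1 than in NC, with a median log2 fold change of -0.06. Over all 11553 genes tested, 1379 had non-overlapping libraries with Tg1 higher. The 4 endothelial markers found summed to at most 2.09 CPM in any library.

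PHIP was lowest in the 3 Tg1 libraries among all 15. Its normalized level was 27.8, 30.2 and 30.9 CPM in Tg1 replicates 1, 2 and 3. The NC libraries had 42.7, 37.5 and 37.9 CPM, and the WT libraries 36.3, 35.4 and 36.8 CPM. The Tg2 libraries had 39.9, 37.0 and 37.8 CPM, and the Tg3 libraries 34.5, 39.0 and 39.2 CPM. Tg1 thus lay below the other 12 libraries without overlap, whereas NC, Tg2 and Tg3 overlapped and WT lay just below NC and Tg2. PHIP was chosen for being lower in Tg1 than in NC, which favours this order. The share of all genes with Tg1 below the other 12 libraries was not counted. The means were 39.3 ± 2.88 CPM in NC, 38.2 ± 1.5 CPM in Tg2, 37.6 ± 2.66 CPM in Tg3, 36.1 ± 0.708 CPM in WT and 29.7 ± 1.60 CPM in Tg1 (SD, n = 3 each). PHIP rested on 640 to 983 counts per library, for which counting noise alone gives a coefficient of variation of 3.20% to 3.74% at the group means. The observed coefficient of variation was 7.33% in NC and 7.08% in Tg3, where replicate 1 stood apart from the other two, and 1.96% in WT.

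ASH1L had its highest mean in NC and its lowest in Tg1, with WT replicate 3 inside the NC range. Its levels were 114.1, 118.6 and 119.8 CPM in NC replicates 1, 2 and 3 and 92.3, 95.3 and 98.5 CPM in Tg1. They were 109.6, 102.9 and 114.8 CPM in WT, 104.6, 98.1 and 108.6 CPM in Tg2, and 107.9, 110.2 and 112.4 CPM in Tg3. Replicate 2 was the lowest library of WT and of Tg2, and Tg2 replicate 2 fell inside the Tg1 range. The means were 117.5 ± 3.01 CPM in NC, 110.1 ± 2.26 CPM in Tg3, 109.1 ± 5.93 CPM in WT, 103.8 ± 5.35 CPM in Tg2 and 95.3 ± 3.09 CPM in Tg1 (SD, n = 3 each). The counts were 2096 to 3109 per library.

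JMJD1C had the same first and last group. Its levels were 113.1, 114.7 and 112.5 CPM in NC replicates 1, 2 and 3, the tightest group of the 3 genes. The coefficient of variation there was 0.962%, below the 1.88% that counting noise alone gives at the group mean. In Tg1 the levels were 92.1, 98.1 and 92.6 CPM. They were 106.6, 97.1 and 109.9 CPM in WT, 101.3, 108.3 and 109.6 CPM in Tg2, and 105.0, 104.1 and 111.2 CPM in Tg3. All 12 libraries with a PKD2 insert were below the 3 NC libraries, and WT replicate 2 lay inside the Tg1 range. The gap between Tg1 and NC follows from the choice of the gene. The share of all genes with these 12 libraries below NC was not counted. The means were 113.4 ± 1.09 CPM in NC, 106.8 ± 3.89 CPM in Tg3, 106.4 ± 4.51 CPM in Tg2, 104.5 ± 6.65 CPM in WT and 94.2 ± 3.31 CPM in Tg1 (SD, n = 3 each), from 2060 to 3006 counts per library. Transcript lengths were not used here, so levels are not compared between the genes.

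**Figure D1:**
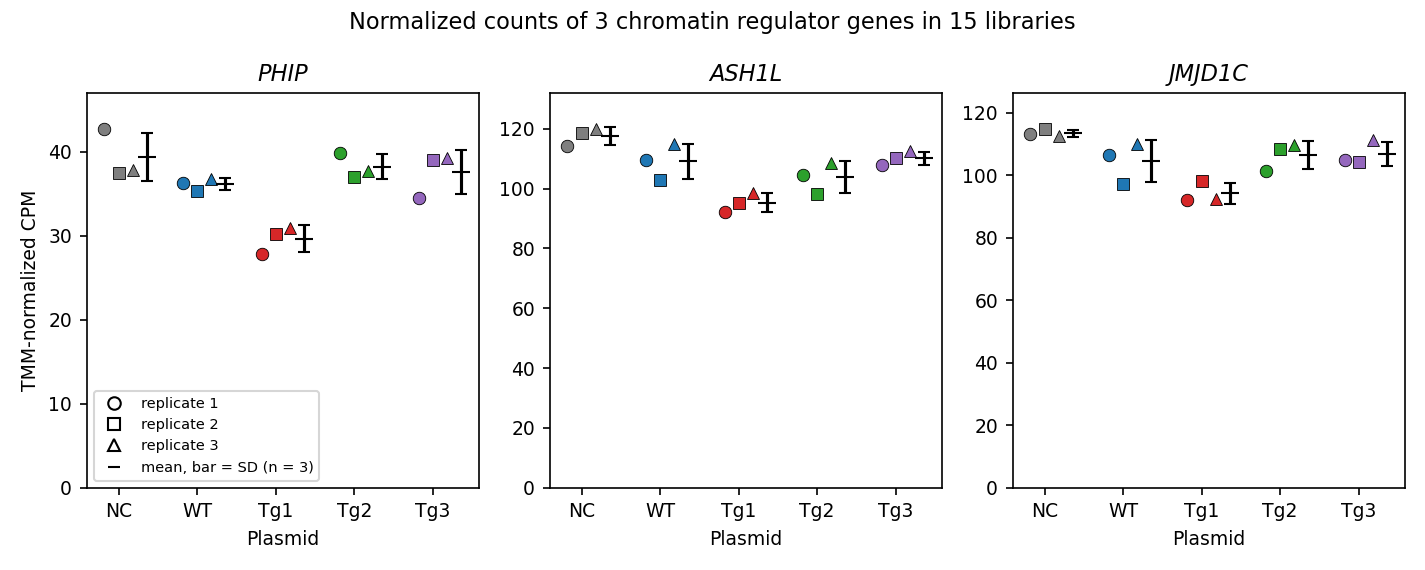
TMM-normalized CPM (y axis, from 0) of PHIP, ASH1L and JMJD1C in each library by plasmid (x axis), with the symbol giving the replicate number and the bar the mean ± SD of 3 libraries. Tg1 is lowest for each gene, and for PHIP its libraries (27.8 to 30.9 CPM) lie below all others. The genes were chosen for being lower in Tg1 than in NC.

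In Tg1 the mean level was 75.4% of that in NC for PHIP, 81.2% for ASH1L and 83.1% for JMJD1C. The log2 fold changes of Tg1 against NC were -0.41 (standard error, SE, 0.06) for PHIP, -0.30 (0.05) for ASH1L and -0.27 (0.05) for JMJD1C, and the Tg1 libraries lay below the NC libraries for each gene. These values chose the genes and support nothing by themselves. Over all genes, 1.01% were called lower in Tg1 than in NC, and 14.8% had non-overlapping libraries with Tg1 lower. The 117 genes behind the first share became 14 without Tg1 replicate 2, 16 without NC replicate 1 or NC replicate 3, 32 without Tg1 replicate 1, and 184 without WT replicate 2. JMJD1C was close to the fold-change threshold of 0.26 and lost its call whenever 1 of the 6 Tg1 and NC libraries was omitted. Its log2 fold changes were then -0.25 (without Tg1 replicate 1) to -0.30 (without Tg1 replicate 2). Without NC replicate 1, NC replicate 3 or Tg1 replicate 2 the fold change still passed the threshold, so the adjusted p-value removed the call. PHIP was not called without NC replicate 1, where its log2 fold change was -0.34, or without Tg1 replicate 2 (-0.42), and ASH1L was not called without NC replicate 3 (-0.29) or Tg1 replicate 2 (-0.30). Because whole wells were sequenced, fewer cells with high expression and less RNA per cell cannot be told apart.

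Against NC, none of the 3 genes was called in WT, Tg2 or Tg3, although all 9 log2 fold changes were negative. These comparisons share the NC libraries with the one that chose the genes, and with each other. In WT, the log2 fold changes were -0.12 (95% interval -0.26 to 0.02) for PHIP, -0.11 (-0.21 to -0.005) for ASH1L and -0.12 (-0.22 to -0.013) for JMJD1C, each with an edgeR adjusted p-value of 1.00. No gene of the whole table was called lower in WT by edgeR (0%), 524 genes had an unadjusted p-value under 0.05, and DESeq2 called 0 lower and 11 higher. The WT libraries of PHIP and JMJD1C lay below those of NC, as did 4.69% of all genes.

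ASH1L came nearest to a change in another mutant. In Tg2 its log2 fold change against NC was -0.18 (SE 0.05, 95% interval -0.28 to -0.08), for an edgeR adjusted p-value of 0.0297, and the Tg2 libraries lay below those of NC, so it missed the call only by the size of the fold change. Leaving out single libraries gave an adjusted p-value between 0.0117 and 0.116 (edgeR). JMJD1C had -0.09 (-0.20 to 0.01, edgeR adjusted p = 0.194) in Tg2, also without overlap, and PHIP had -0.04 (-0.18 to 0.10, edgeR adjusted p = 0.675) with overlapping libraries. Tg2 is the plasmid with the most calls, as 3.7% of all genes were called lower than in NC and 18% did not overlap with Tg2 lower, so 2 of the 3 genes without overlap and 0 called are read against a high background.

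In Tg3, the log2 fold changes against NC were -0.07 (95% interval -0.20 to 0.07) for PHIP, -0.09 (-0.19 to 0.01) for ASH1L and -0.09 (-0.19 to 0.02) for JMJD1C. Their edgeR adjusted p-values were 0.584, 0.306 and 0.346. ASH1L and JMJD1C had non-overlapping libraries, as did 13.9% of all genes with Tg3 lower. Over all genes edgeR called 0% lower in Tg3, with 2089 genes at an unadjusted p-value under 0.05, whereas DESeq2 called 22 lower and 30 higher.

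The fold changes between WT, Tg2 and Tg3 compare no library that chose the genes, and none of the 3 genes was called. Their standard errors, p-values and intervals use a spread estimated over all 15 libraries, including the NC and Tg1 libraries that chose the genes. For Tg2 against WT, the log2 fold changes were 0.08 (95% interval -0.06 to 0.22) for PHIP, -0.07 (-0.17 to 0.03) for ASH1L and 0.03 (-0.08 to 0.13) for JMJD1C, for edgeR adjusted p-values of 0.395, 0.296 and 0.737. For comparison, 5.92% of all genes were called in one direction or the other between Tg2 and WT. These 302 lower and 382 higher genes became 1023 and 1398 without WT replicate 2 and 804 and 1074 without Tg2 replicate 3, and 0 and at most 1 without WT replicate 1, WT replicate 3, Tg2 replicate 1 or Tg2 replicate 2, and 0 in a fit of only these plasmids. For Tg3 against WT they were 0.06 (-0.08 to 0.19), 0.01 (-0.09 to 0.12) and 0.03 (-0.07 to 0.14), for edgeR adjusted p-values of 0.635, 0.889 and 0.738. Here edgeR called 0% of all genes, with 2215 at an unadjusted p-value under 0.05, and DESeq2 called 62 lower and 54 higher. Without WT replicate 2, edgeR called 483 lower and 838 higher. For Tg2 against Tg3 they were 0.02 (-0.11 to 0.16), -0.09 (-0.19 to 0.02) and -0.01 (-0.11 to 0.10), for edgeR adjusted p-values of 0.920, 0.822 and 0.982. Neither edgeR (0%, with 673 genes at an unadjusted p-value under 0.05) nor DESeq2 called a gene between these mutants. With the spread of all 15 libraries, each of the 9 intervals lies inside the fold-change threshold of 0.26. None therefore holds a difference of that size between WT, Tg2 and Tg3, while smaller ones were not detected.

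Tg1 was below WT, Tg2 and Tg3 for each gene, and the difference was called for PHIP against both other mutants. The Tg1 libraries are among those that chose the genes, so these p-values are not independent of the choice. PHIP had a log2 change of -0.37 (SE 0.065) in Tg1 against Tg2, for an edgeR adjusted p-value of 0.0476, and of -0.34 (SE 0.065) against Tg3, for 0.0299. Over all genes, 0.121% were called lower in Tg1 than in Tg2, and 0.554% lower than in Tg3. The 14 genes of the first share became 115 with DESeq2, 99 with the replicate block, 87 without WT replicate 2 and 0 without Tg1 replicate 1, Tg1 replicate 2 or Tg2 replicate 1. The 64 of the other became 117 with DESeq2 and 3 without Tg1 replicate 1 or Tg3 replicate 3. Against WT, PHIP had -0.29 (SE 0.065, edgeR adjusted p = 0.0945), where 0.0692% of all genes were called lower in Tg1. In all 3 comparisons the libraries of PHIP did not overlap, which held for 12% of all genes against Tg2, 13.1% against Tg3 and 8.45% against WT with Tg1 lower (exact permutation test, two-sided, p = 0.1, the smallest that 3 against 3 libraries allow).

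The calls of PHIP were marginal. Against Tg2 it was called in 3 of the 15 fits that left out 1 library, namely those without WT replicate 2, Tg1 replicate 3 or Tg2 replicate 3, and in the other 12 the adjusted p-value from edgeR was 0.0533 (without WT replicate 3) to 0.246 (without Tg1 replicate 1). Against Tg3 it was called in 10 of 15, and the exceptions were the fits without Tg1 replicate 1 (edgeR adjusted p = 0.162), Tg1 replicate 2 (0.102), Tg3 replicate 2 (0.130), Tg3 replicate 3 (0.111) or WT replicate 1 (0.051). The log2 fold change stayed between -0.40 and -0.32 against Tg2 and between -0.40 and -0.30 against Tg3. Against WT it was called without WT replicate 2 (-0.30, edgeR adjusted p = 0.0257) and with DESeq2 in place of edgeR (-0.29, DESeq2 adjusted p = 0.0207).

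ASH1L and JMJD1C were not called between Tg1 and another PKD2 plasmid. The log2 fold changes of ASH1L were -0.19 against WT, -0.12 against Tg2 and -0.21 against Tg3, with an SE of 0.05 each, for edgeR adjusted p-values of 0.108, 0.187 and 0.054. Those of JMJD1C were -0.15, -0.17 and -0.18, with an SE of 0.05 each, for edgeR adjusted p-values of 0.192, 0.105 and 0.0927. In the same order, DESeq2 gave adjusted p-values of 0.0296, 0.186 and 0.0118 for ASH1L and 0.148, 0.0496 and 0.0454 for JMJD1C. Those under 0.05 missed the call only by the size of the fold change. In the order of mean levels, NC was first and Tg1 last for each gene. In between came Tg2, Tg3 and WT for PHIP, Tg3, WT and Tg2 for ASH1L, and Tg3, Tg2 and WT for JMJD1C. No pair of neighbours in these orders was called by edgeR.

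**Figure D2:**
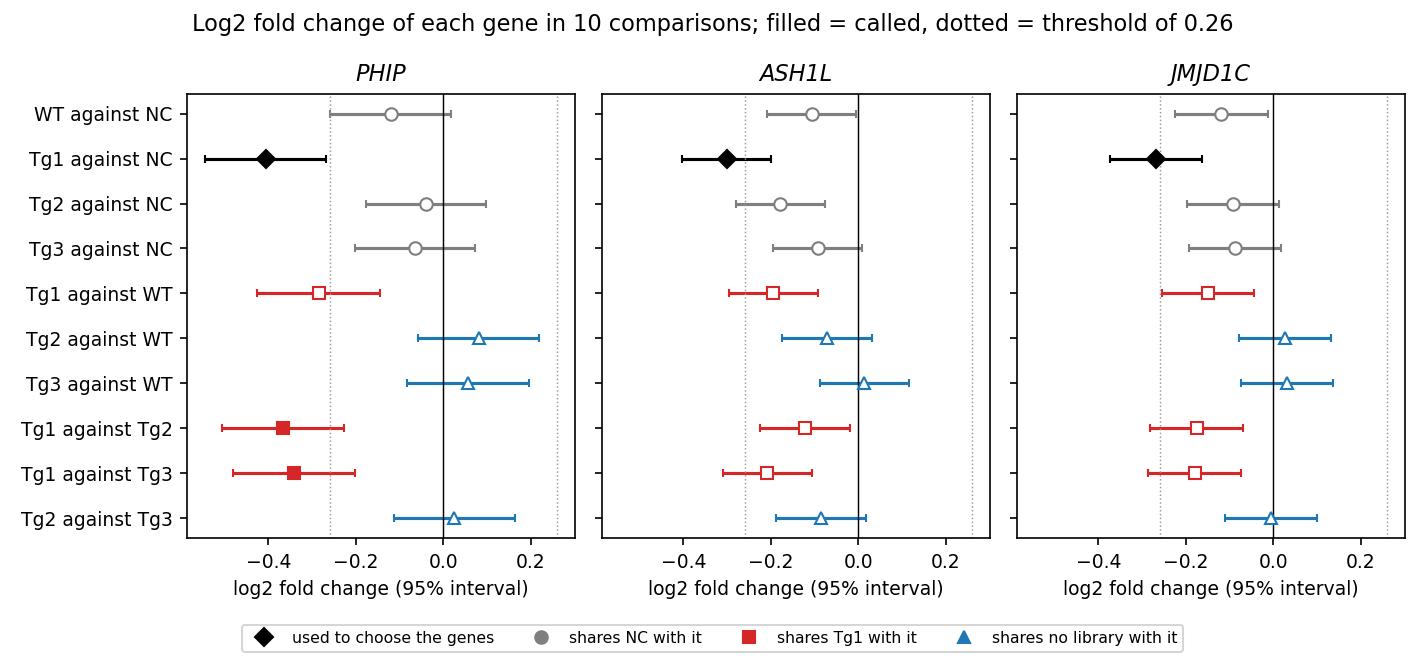
Log2 fold change (x axis, with 95% interval) of PHIP, ASH1L and JMJD1C in 10 comparisons (y axis), coloured by whether a comparison shares libraries with the one that chose the genes. Filled points were called: PHIP in Tg1 against Tg2 (-0.37) and Tg3 (-0.34), and the 3 chosen values of Tg1 against NC.

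**Figure D3:**
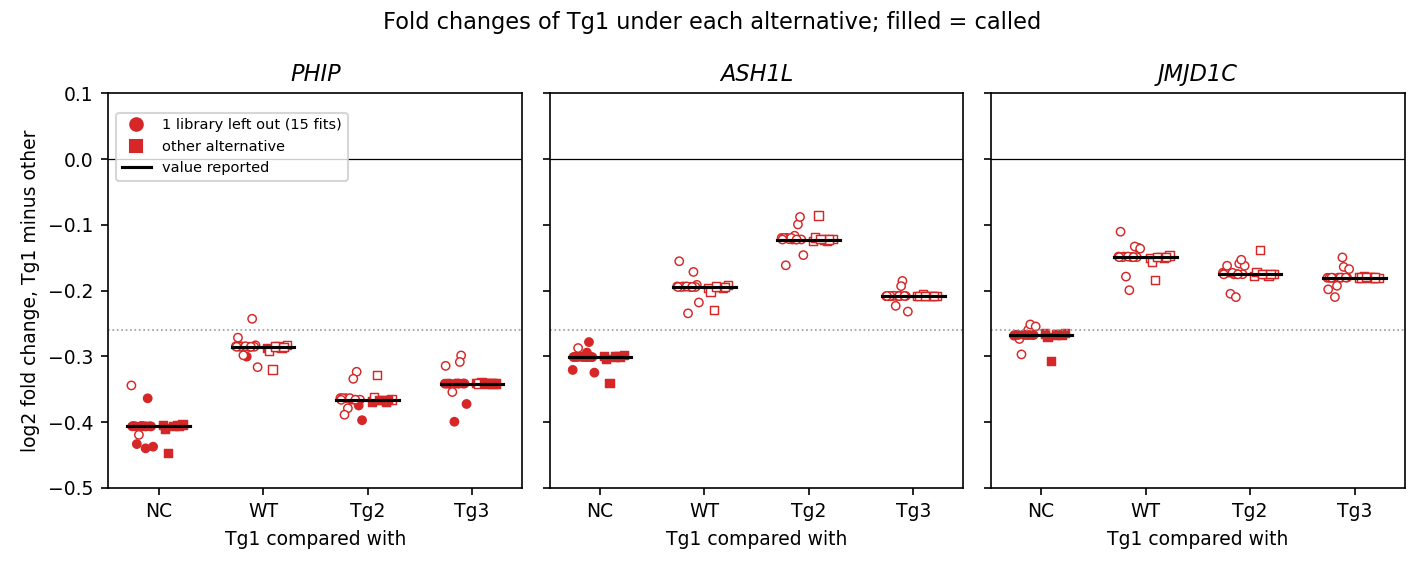
Log2 fold change of Tg1 minus NC, WT, Tg2 or Tg3 (y axis) for each gene under every alternative, with circles for fits without 1 library, squares for the other alternatives and a line for the value reported. The values keep their sign throughout, and PHIP lies between -0.40 and -0.30 against Tg3 when 1 library is left out. Calls (filled) come and go both near the dotted threshold and beyond it. For example, PHIP against NC was not called at -0.42 without Tg1 replicate 2.

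The 3 genes followed each other over the 15 libraries, and less closely among replicates of a plasmid. Over the 15 libraries the log2 CPM of ASH1L and JMJD1C correlated at r = 0.85, PHIP and JMJD1C at 0.79, and PHIP and ASH1L at 0.76, but these values include the Tg1 and NC difference that the choice fixed. The deviations from the plasmid means, which leave that difference out, correlated at 0.50, 0.11 and 0.28. Of the 11552 other tested genes, 1370 had deviations more like those of ASH1L than JMJD1C had, and 3754 had deviations more like those of PHIP than JMJD1C had. The points share library, depth and normalization, and are given as a description. WT replicate 2 was the lowest WT library for each gene, by -0.03 (PHIP), -0.08 (ASH1L) and -0.10 (JMJD1C) on the log2 scale from the WT mean, whereas NC replicate 1 was the highest NC library for PHIP (0.12) and the lowest for ASH1L (-0.04).

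The nearest relatives of the 3 proteins did not pass the test in Tg1 against NC. These 7 genes were picked for kinship after values were seen. BRWD1 and BRWD3, which share the WD40 and bromodomain build of PHIP, had log2 fold changes of -0.12 (SE 0.04, edgeR adjusted p = 0.123) and -0.24 (SE 0.10, edgeR adjusted p = 0.198). In Tg2 against NC, BRWD1 reached an edgeR adjusted p-value of 0.0458 at a log2 change of -0.13, under the threshold. Among other methyltransferases of histone H3 lysine 36, NSD3 had -0.22 (SE 0.06, edgeR adjusted p = 0.0583), SETD2, which sets the trimethyl mark, -0.13, and NSD2 -0.01. KDM3A and KDM3B, the lysine 9 demethylases related to JMJD1C, had 0.01 (SE 0.07) and -0.19 (SE 0.10), for edgeR adjusted p-values of 0.931 and 0.314. KDM3A was at 62.8 ± 2.86 CPM in NC and 63.4 ± 3.73 CPM in Tg1 (SD, n = 3 each).

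The wider families were looked up by symbol in 11 lists. Of 31 genes tested in the lysine methyltransferase list, 4 were called lower in Tg1 than in NC and 0 higher. These were ASH1L itself, KMT2A, KMT2C and KMT2E, thus 3 of the other 30 beside 1.01% of all genes. The list was made by name, and enzyme activity was not tested. KMT2A, the MLL methyltransferase of histone H3 lysine 4, fell from 57.2 ± 2.08 CPM in NC to 39.0 ± 4.48 CPM in Tg1 (SD, n = 3 each), a log2 change of -0.55 (SE 0.10, edgeR adjusted p = 0.0161). It was also called lower in Tg1 than in Tg3, with a log2 change of -0.48 (edgeR adjusted p = 0.0385). KMT2C, a monomethyltransferase of the same lysine, fell from 70.1 ± 5.34 CPM to 51.5 ± 3.29 CPM (SD, n = 3 each), a log2 change of -0.44 (SE 0.09, edgeR adjusted p = 0.0271). KMT2E had -0.33 (SE 0.07, edgeR adjusted p = 0.034). The median over the 31 genes was -0.01, against 0.003 over all genes tested, and 17 of the 31 were below 0. The list lost all 4 calls without NC replicate 3 or Tg1 replicate 2, and kept 1 without NC replicate 1 or Tg1 replicate 1.

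Of 35 bromodomain proteins tested, 4 were called lower in Tg1 and 0 higher, of which PHIP and ASH1L were chosen by this contrast. That leaves 2 of the other 33, beside 1.01% of all genes. These were KMT2A and BAZ2B, a bromodomain protein of ISWI remodelling complexes, which fell from 51.4 ± 2.05 CPM in NC to 39.4 ± 0.523 CPM in Tg1 (SD, n = 3 each), a log2 change of -0.39 (SE 0.07, edgeR adjusted p = 0.0179). BAZ2B was lower in Tg2 as well, with a log2 change of -0.33 (SE 0.07, edgeR adjusted p = 0.0176). The median of the list was -0.07 in Tg1, with 25 of the other 33 below 0, beside 49.0% of all genes, and 0 of the 4 calls were left without Tg1 replicate 2 and 1 without NC replicate 1 or NC replicate 3. Apart from the chosen genes, edgeR called 0 of 26 lysine demethylases and JmjC proteins and 0 of 32 CUL4-DDB1 ligase genes in Tg1. With JMJD1C and PHIP included, these lists had medians of -0.04 and -0.01, an unadjusted p-value under 0.05 for 4 and 3 members, and 1 call each by DESeq2. Among 30 Polycomb genes, PHC3 was called, with a log2 change of -0.33 (SE 0.08, edgeR adjusted p = 0.0455), and the 17 COMPASS and MLL genes added no call to KMT2A and KMT2C (median -0.09).

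In 4 lists of partner and target genes, edgeR called 0 genes in Tg1 against NC, where the unadjusted p-value was under 0.05 for 19.9% of all genes. Of 16 genes around the histone H3 lysine 36 mark (median log2 fold change 0.01), 2 had an unadjusted p-value under 0.05 and DESeq2 called 0. Of 25 BAF and PBAF subunits (median -0.02) these counts were 5 and 1, of 22 insulin and IGF signalling genes (median -0.10) 8 and 1, and of 17 HOX genes (median -0.04) 1 and 0. The 13 mitochondrially encoded genes had log2 fold changes below 0 in Tg1 (median -0.13), with 0 called by edgeR, 3 at an unadjusted p-value under 0.05 and 1 called by DESeq2, and their share of the normalized counts was 2.90% to 3.12% in Tg1 and 3.12% to 3.31% in NC. In Tg2 their median was -0.28 and their share 2.83% to 3.07%. Their part in the levels of the 3 genes was not tested.

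In Tg2, other members of these families were called, against a background of 3.7% of all genes lower and 4.73% higher. These 428 and 546 genes became 0 and 0 without NC replicate 3 or Tg2 replicate 2, 5 and 19 without NC replicate 1, 15 and 33 without Tg2 replicate 1, and 851 and 1029 without Tg2 replicate 3. Of the 31 genes in the methyltransferase list, SMYD4 and SUV39H1, a lysine 9 trimethylase, rose, with log2 fold changes of 0.35 and 0.27 (edgeR adjusted p = 0.0289 and 0.0402). Of the bromodomain proteins, ATAD2 rose from 137 ± 13.0 CPM in NC to 185 ± 22.2 CPM in Tg2 (SD, n = 3 each), a log2 fold change of 0.43 (SE 0.12, edgeR adjusted p = 0.0377), and KAT2A, the acetyltransferase GCN5, rose by 0.31 (edgeR adjusted p = 0.0214). Both were also called higher than in WT, with log2 fold changes of 0.52 and 0.28. HR, a JmjC corepressor, fell with a log2 change of -0.60 (edgeR adjusted p = 0.0377), from a low level of 6.36 ± 0.993 CPM in NC (SD, n = 3).

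Among CUL4-DDB1 genes, DTL, a substrate receptor of replicating cells, was called higher in Tg2 than in NC, by 0.27 (edgeR adjusted p = 0.0339), and together with GRWD1 it was called higher than in WT, by 0.32 and 0.29. Of the Polycomb genes, PHC1 and PHC2 rose by 0.40 and 0.50 (edgeR adjusted p = 0.0297 and 0.0415), and BMI1 fell with a log2 change of -0.29 (edgeR adjusted p = 0.0321). Single calls in the remaining lists were DPF1 of the BAF complex (-0.40, edgeR adjusted p = 0.0168), the PI3-kinase subunit PIK3R3 (-0.35, edgeR adjusted p = 0.0134) and HOXD8 (-0.41, edgeR adjusted p = 0.0313). Of the mitochondrially encoded genes, ATP8, ND3, ND6 and CYTB were called lower. Without NC replicate 3 or Tg2 replicate 2, none of these calls of Tg2 against NC was left, since that comparison had 0 calls over all genes. Tg2 against WT kept 263 lower and 301 higher genes without NC replicate 3, and 0 and 0 without Tg2 replicate 2. In Tg2 against NC, the methyltransferase, demethylase, bromodomain and CUL4-DDB1 lists had 0 calls without NC replicate 1 or Tg2 replicate 1. Over the 239 tested genes of the 11 lists, edgeR called 0 in WT and 0 in Tg3 against NC, with 8 and 42 at an unadjusted p-value under 0.05, and DESeq2 called 0 and 2.

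**Figure D4:**
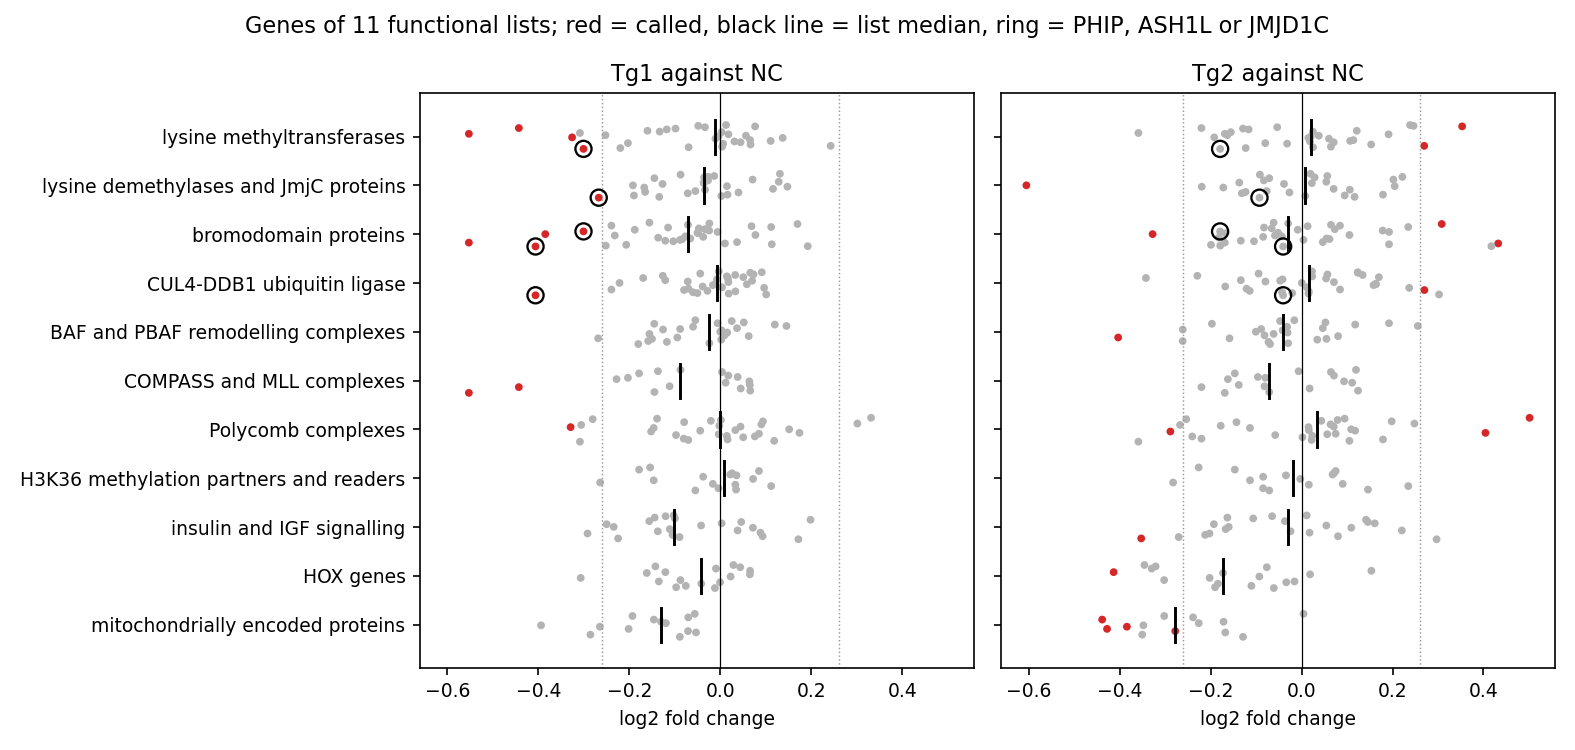
Log2 fold change (x axis) of every tested gene of 11 functional lists (y axis) in Tg1 and Tg2 against NC, with called genes in red, list medians as black lines and PHIP, ASH1L and JMJD1C ringed. In Tg1 the 8 called genes, 3 of them chosen by this contrast, lie on the lower side, down to -0.55 for KMT2A, as do 117 of the 138 calls over all genes, and in Tg2 calls lie on both sides.

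The genes whose levels were most like those of the 3 regulators over the 15 libraries are given as a description. Since the regulators were chosen for a low level in Tg1, genes picked for likeness to them over the same libraries are low in Tg1 by the choice, and the opposite ones high. Of the 10131 other tested genes with a symbol, UTRN was closest to PHIP (Pearson r = 0.93, Spearman rho = 0.86), followed by DMXL1 (0.93), RNF111 (0.91), SMG1 (0.91) and ARHGAP5 (0.91). UTRN encodes utrophin, a cytoskeletal protein, and SMG1 a kinase of nonsense-mediated decay. UTRN was at 151.5 ± 1.61 CPM in NC and 125.3 ± 8.85 CPM in Tg1, and at 147.4 ± 6.37 CPM in Tg2 (SD, n = 3 each). The most opposite genes were KRT18 (r = -0.86), a keratin, and SRSF5 (r = -0.86), a splicing factor.

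ASH1L was most like CBX5 (r = 0.96), the heterochromatin protein HP1 alpha, then HERC2 (0.96), ASPM (0.95), TEAD1 (0.95) and PRRC2C (0.94), and most opposite to WFDC2 (-0.91) and ARHGAP22 (-0.90). CBX5 was at 384 ± 7.84 CPM in NC, 364 ± 25.6 CPM in WT, 323 ± 2.60 CPM in Tg1, 350 ± 15.3 CPM in Tg2 and 369 ± 9.32 CPM in Tg3 (SD, n = 3 each), the same order of plasmids as ASH1L. JMJD1C was most like NFAT5 (r = 0.91), the osmotic stress transcription factor, TRIM33 (0.91), PRRC2C (0.90), KIF23 (0.89) and PDXP (0.88), and most opposite to BLVRB (-0.89) and BCAP31 (-0.86). NFAT5 was at 57.7 ± 3.11 CPM in NC and 37.8 ± 2.66 CPM in Tg1 (SD, n = 3 each). PRRC2C was on the lists of both ASH1L and JMJD1C.

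By rank correlation, CBX5 remained first for ASH1L, RNF111 was first and UTRN in place 4 for PHIP, and NFAT5 was in place 8 for JMJD1C. By deviations from the plasmid means, UTRN was in place 37 for PHIP (r = 0.69), CBX5 in place 30 for ASH1L (r = 0.84) and NFAT5 in place 495 for JMJD1C (r = 0.66). All correlations are over the same 15 libraries, whose groups include the Tg1 and NC libraries that chose the 3 genes.

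**Figure D5:**
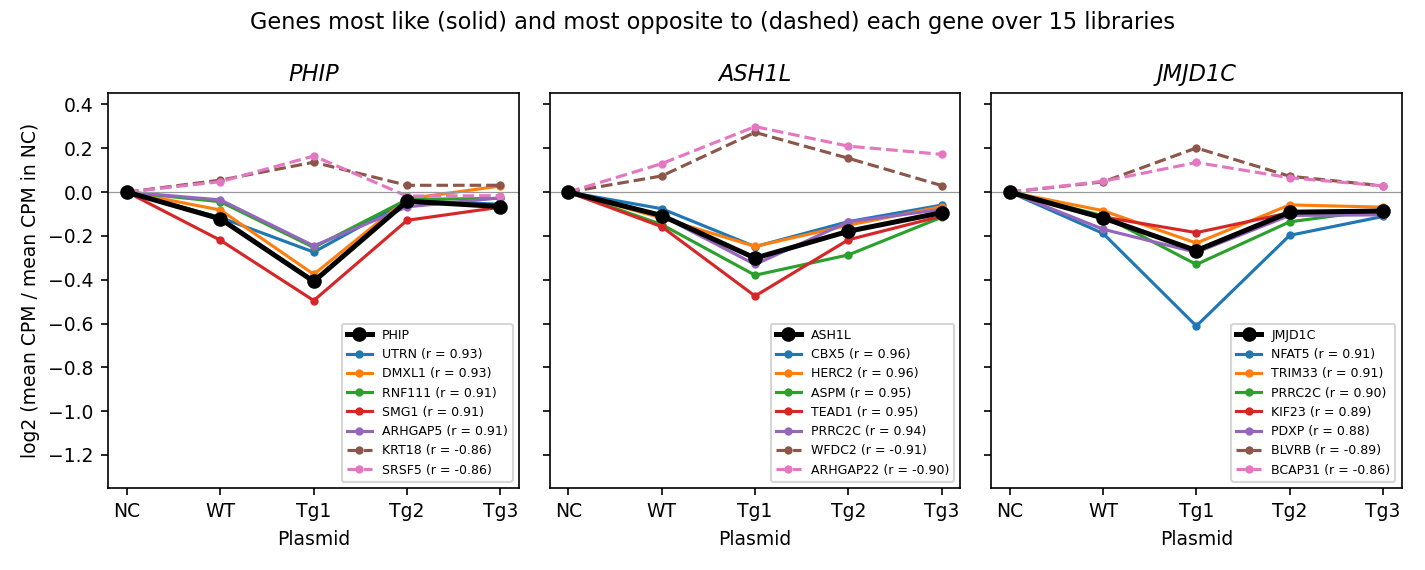
Log2 ratio of the mean CPM of each plasmid to that of NC (y axis) by plasmid (x axis) for PHIP, ASH1L and JMJD1C (black), the 5 genes most like each (solid) and the 2 most opposite (dashed), with Pearson r over 15 libraries in the legend. The low point of the black and solid lines in Tg1 and the high point of the dashed ones follow from how the genes were picked, while their depth varies, with NFAT5 the deepest.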

How the data were processed

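Per the study's methods and the labels, poly(A) RNA of LLC-PK1 wells was sequenced on an Illumina instrument, and Salmon estimated transcript abundance against the pig cDNA of Ensembl release 98. The authors deposited whole-number counts per Ensembl gene, not normalized between libraries, while the sources used here do not describe the step from transcripts to genes or name the genome build. Reads of similar genes, such as PHIP, BRWD1 and BRWD3, may be divided between them in that step. Plasmid and replicate came from the labels, and symbols from a table that named 13373 of the 16660 identifiers.

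From these counts, edgeR 4.0.16 (R 4.3.3) was run with TMM normalization, glmQLFit and glmQLFTest, all 15 libraries in 1 model of plasmid means, and Benjamini-Hochberg adjustment over the 11553 genes whose mean CPM was at least 2. The standard error is the log2 fold change divided by the square root of F, and 95% intervals use the t distribution of the same fit. The CPM minimum and thresholds follow the study's methods, which used DESeq2 (here 1.42.0, as an alternative). The fit was tested on simulated data.

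Named list genes were those called, at most 4 per list and comparison by adjusted p-value. The genes and lists were chosen with earlier results of these data known. Likeness was the Pearson r of log2 CPM (prior count 2). Other alternatives were DESeq2 size factors, library totals, 2 filters, fits of 2 plasmids, no fold threshold, a block for the replicate number, and fits without 1 library each. Same-numbered libraries correlated in their deviations from the plasmid means at 0.14 on average, against -0.07 for the others. Deviations sum to 0 within a plasmid, so the second value follows largely from the first. Every pair exceeded 0.1 only for WT and NC. Positions and sequences were not used here. The level of 1 tubule marker is not reported here.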

Additional observations from a re-analysis of the deposited data

How the results depend on the processing

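Of the 687 recomputed fold changes of the 3 genes, 674 kept their sign and 653 stayed called or not called as before. These totals include the setting without a fold threshold, whose values could not move, and fits without a library outside the comparison. Most of the 34 changed calls fell on results called with all libraries. For example, PHIP in Tg1 against Tg2 was called in 3 of the 15 fits without 1 library. With DESeq2 in place of edgeR, PHIP was called in Tg1 against WT (-0.29). Without the fold-change threshold, ASH1L was called in Tg2 against NC (-0.18). PHIP in Tg1 against Tg2 was no longer called with library totals only (-0.33), without a filter on low counts (-0.37) or in a fit of only these plasmids (-0.36). In Tg1 against Tg3 it was no longer called in a fit of only these plasmids (-0.34). With library totals only, JMJD1C in Tg1 against NC moved to -0.31, and small values changed sign, to -0.046 for JMJD1C in Tg2 against WT, -0.024 for ASH1L and -0.0065 for JMJD1C in Tg3 against WT, and -0.010 for PHIP in Tg2 against Tg3. That scaling moved the median of all genes by -0.08 in Tg2 against NC. The cause of the changes in call was not tested.

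With single libraries left out, the log2 fold changes of PHIP ranged from -0.32 to -0.24 against WT, from -0.40 to -0.32 against Tg2 and from -0.40 to -0.30 against Tg3 for Tg1. Values near 0 changed sign for PHIP in Tg2 against NC (-0.074 to 0.019) and against Tg3 (-0.036 to 0.057), for JMJD1C in Tg2 against WT (-0.024 to 0.062), in Tg3 against WT (-0.019 to 0.070) and in Tg2 against Tg3 (-0.027 to 0.030), and for ASH1L in Tg3 against WT (-0.026 to 0.053). The number of the 3 genes called in Tg1 against NC ranged from 0 (without Tg1 replicate 2) to 3.

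With the replicate block, the log2 values of PHIP were -0.37 in Tg1 against Tg2 (edgeR adjusted p = 0.0373) and -0.34 against Tg3 (edgeR adjusted p = 0.0308), and the block changed no call of the 3 genes. It moved the genes called lower in Tg1 against NC from 117 to 189, against WT from 8 to 58 and against Tg2 from 14 to 99, and DESeq2 moved the last 2 to 68 and 115. Of the 15 libraries, 9 were closest to their own number, and the number to be had without pairing was not computed. Without WT replicate 2, 361 genes were called lower and 494 higher in Tg1 than in WT, against 8 and 0 with it.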
